A study of Mus musculus with 28 samples.

Results

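Experiment B compared tumors lacking both KEAP1 and NRF2 (double knockout, DKO) with tumors lacking KEAP1 alone (KEAP1-KO). The tumors were chosen by their sample names: 4 DKO and 4 KEAP1-KO tumors, 8 of the 28 libraries in the series, and all rows of the expression table that carry a gene symbol were read. The series also holds 8 tumors of Experiment A (4 WT and 4 KEAP1-KO) and 12 libraries of the same lines in culture (4 WT, 4 KEAP1-KO and 4 DKO). All tumors grew from 3LL, a mouse Lewis lung carcinoma line, injected under the skin of male albino C57BL/6 mice at 6 weeks of age and collected 10 days later. Both arms of Experiment B carry the Keap1 frameshift, made with a guide to exon 2. The DKO line was derived from the KEAP1-KO line with a guide to exon 5 of Nrf2 (gene symbol Nfe2l2), and it is 1 clone, in which 1 allele gained 1 base and the other lost 1 base. The mice themselves were not edited, so vessels, fibroblasts and immune cells of both arms kept KEAP1 and NRF2. KEAP1-KO cells went into the left flank and DKO cells into the right flank of the same mice, so that genotype, clone and flank cannot be told apart. The labels do not say which tumors shared a mouse, and p-values therefore measure the spread between these tumors.

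NRF2 is a transcription factor that drives defence against oxidants and electrophiles. KEAP1, the adaptor of a CUL3 ubiquitin ligase, binds NRF2 and sends it to the proteasome, so that loss of KEAP1 lets NRF2 accumulate and, with a small MAF partner, switch on genes with antioxidant response elements. Its targets include enzymes of glutathione synthesis, detoxification, NADPH supply and iron storage, and lung cancers often carry mutations in this pathway. Interferon genes are a separate program, switched on by STAT and IRF factors through interferon-stimulated response elements.

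The 8 tumors gave 4222383 to 5806535 reads each, recovered from the steps between values, with group medians of 4902854 (KEAP1-KO) and 4948744 (DKO). Values were log2(normalized count + 4), so that a row without reads stands at 2.0, and every difference below is DKO minus KEAP1-KO on this scale, which understates the change of low rows. Of 18509 rows with a symbol, 8420 were whole genes and 10089 were single transcripts, of which 4187 were retained introns. A transcript row measures that transcript and not the whole gene, and the kind of each row is named where its values are given. Members of families with near-identical copies, such as the Gstm, Gbp, Ifit, Serpinb9 and Ly6c genes, may share reads. RNA came from whole tumors, in which fewer cells of a type and less RNA per cell cannot be told apart.

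In DKO tumors 2146 of the 15503 tested rows with a symbol differed from KEAP1-KO tumors, 13.8% of them, at an adjusted p under 0.05 (limma with Benjamini-Hochberg adjustment over all rows). The calls were split almost evenly, with 1042 higher (6.72%) and 1104 lower (7.12%), and these 2 shares are the background for each list count that follows. Calls of at least 1 log2 unit were more often higher (500) than lower (324). The 4 values of each arm did not overlap in 1627 rows with DKO tumors higher (10.5%) and in 1604 with DKO tumors lower (10.3%). The median difference over all rows was 0.010. After rescaling without the 20 highest rows 1393 were higher and 832 lower, and the median moved to 0.085. The row for 18S ribosomal RNA (Rn18s), a residue of ribosome depletion, stood at 8.60, 10.95, 10.76 and 10.83 in KEAP1-KO tumors and at 13.37, 12.83, 11.58 and 12.31 in DKO tumors. Its difference was 2.24 ± 0.49 (SE, adjusted p = 7.3e-03), and its part in the other results was not tested.

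Keap1, measured as a whole gene, stood at 7.30 to 7.52 in KEAP1-KO tumors and 7.24 to 7.51 in DKO tumors, and the groups overlapped (difference -0.09 ± 0.13, adjusted p = 0.78). Experiment A had put it 1.43 below the WT level in its KEAP1-KO tumors (adjusted p = 1.8e-06). Nfe2l2 had 1 row, a processed transcript of 2 exons on the minus strand (GRCm38, chr2:75704364-75704489 and chr2:75691052-75692372). Neither exon overlaps exon 5 of the coding transcript (chr2:75675513-75677184), where the guide cut, so this row checks nothing about the deletion. It lay between 5.41 and 5.72 in both arms.

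The NRF2 program fell. All 15 NRF2 targets displayed by the study passed the test as lower, with a median difference of -2.52 and a summed level 5.22-fold lower in DKO tumors. The study displayed them for these lines, so their direction is not independent evidence. Nqo1, which encodes a quinone reductase, stood at 11.93, 12.40, 12.37 and 12.23 in KEAP1-KO tumors and at 6.17, 6.06, 6.25 and 5.25 in DKO tumors. The groups were far apart, by -6.30 ± 0.18 (whole gene, adjusted p = 1.9e-12). The glutathione S-transferases Gstm1 (processed transcript, -5.71), Gsta4 (whole gene, -4.78) and Gstm2 (retained intron, -4.46) followed, with Slc7a11, the cystine importer that feeds glutathione synthesis (retained intron, -4.05 ± 0.36, adjusted p = 2.6e-06). The Gclm row, a processed transcript of the modifier subunit of glutamate-cysteine ligase, stood at 7.27, 7.74, 7.28 and 7.34 in KEAP1-KO tumors and at 4.63, 2.0, 4.15 and 4.21 in DKO tumors. The groups did not overlap (-3.66 ± 0.40, adjusted p = 1.8e-05), and DKO tumor 2 had no reads of it.

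Promoters of 4 genes that fell are shown because each holds the core of an antioxidant response element, TGACNNNGC, searched on both strands from 250 bases before to 50 bases after the start (RefSeq, GRCm38.p6). Capitals mark the match, and Gclm and G6pdx are listed NRF2 targets while Mfap3l and Calr3 are in no NRF2 list. Sequences run 5′ to 3′ on the strand of the gene.
Gclm, chr3:122245307-122245606, plus strand: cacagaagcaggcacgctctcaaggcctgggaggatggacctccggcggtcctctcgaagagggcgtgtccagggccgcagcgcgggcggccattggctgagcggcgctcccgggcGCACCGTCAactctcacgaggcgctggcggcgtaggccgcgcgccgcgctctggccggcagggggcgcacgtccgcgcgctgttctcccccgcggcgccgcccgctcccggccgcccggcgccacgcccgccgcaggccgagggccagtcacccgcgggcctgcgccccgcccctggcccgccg
G6pdx, chrX:74428831-74429130, minus strand: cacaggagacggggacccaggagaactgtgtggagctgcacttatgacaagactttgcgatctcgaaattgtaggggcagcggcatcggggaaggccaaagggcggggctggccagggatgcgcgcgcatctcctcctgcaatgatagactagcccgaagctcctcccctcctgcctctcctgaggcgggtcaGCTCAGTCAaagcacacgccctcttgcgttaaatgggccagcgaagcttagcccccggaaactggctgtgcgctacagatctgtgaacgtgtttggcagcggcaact
Mfap3l, chr8:60632575-60632874, plus strand, 1 of 3 starts: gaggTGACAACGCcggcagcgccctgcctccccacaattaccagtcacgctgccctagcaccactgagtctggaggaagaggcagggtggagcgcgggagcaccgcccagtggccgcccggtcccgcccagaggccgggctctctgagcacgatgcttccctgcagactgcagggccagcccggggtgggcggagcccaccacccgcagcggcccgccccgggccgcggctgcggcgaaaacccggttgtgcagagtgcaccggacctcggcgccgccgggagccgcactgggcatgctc
Calr3, chr8:72435107-72435406, minus strand, 1 of 2 starts: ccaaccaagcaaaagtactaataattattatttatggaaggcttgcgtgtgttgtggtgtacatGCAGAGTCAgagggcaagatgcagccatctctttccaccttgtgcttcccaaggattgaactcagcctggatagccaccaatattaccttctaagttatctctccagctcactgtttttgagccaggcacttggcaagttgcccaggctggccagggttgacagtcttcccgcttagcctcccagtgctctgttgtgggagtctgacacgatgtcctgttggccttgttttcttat
The Gclm match lies 134 bases before the start, that of G6pdx 57, that of Mfap3l 246 and that of Calr3 186. These letters also cover an AP-1 site (TGACTCA) followed by GC. They occur in 12.4% of all 32851 promoters in the table. Counted by gene, with a match in any of its starts, they occur in 16.7% of the 10035 genes with a row tested. By gene the shares were 18.4% of those called lower and 18.1% of those called higher. Shares by gene are not comparable with the share by promoter. By the same count 4 of 11 genes of the displayed targets held them, and 14 of 50 genes of the other listed targets. The Nqo1 window held none.

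Of 62 other rows of genes widely described as NRF2-dependent, 31 fell and 2 rose, with a median of -0.85 and a summed level 2.87-fold lower. Adh7, an alcohol dehydrogenase that also oxidizes retinol (whole gene), was lower by 5.92 ± 0.30 (adjusted p = 3.0e-09), and Aldh3a1, an aldehyde dehydrogenase (protein-coding transcript), by 4.56 ± 0.23 (adjusted p = 3.8e-09). Cat, encoding catalase, and Esd, encoding the S-formylglutathione hydrolase esterase D, differed by -3.05 (whole gene) and -3.08 (retained intron). Gsdme, a gasdermin that forms membrane pores in dying cells, went the other way (retained intron, 1.78 ± 0.23, adjusted p = 9.5e-05). Hmox1, heme oxygenase 1, did not pass (retained intron, -0.24 ± 0.24, adjusted p = 0.66). Mafg, a small MAF partner of NRF2, was lower by 0.71 (processed transcript, adjusted p = 0.025). That call was lost when KEAP1-KO tumor 1 or 2 or DKO tumor 2, 3 or 4 was left out (adjusted p up to 0.078). It was the 1 call among 23 rows for regulators of the KEAP1-NRF2 pathway.

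The pentose phosphate pathway supplies NADPH and ribose. Of 19 rows for this pathway and other NADPH supply 5 were lower and 1 higher, with a median of -0.17. G6pdx, the entry enzyme of the pathway, stood at 11.21, 11.51, 11.50 and 11.34 in KEAP1-KO tumors and at 8.92, 9.04, 9.18 and 8.85 in DKO tumors (protein-coding transcript). That is a difference of -2.39 ± 0.09 (adjusted p = 6.6e-11) without overlap. The retained-intron rows of Pgd, Taldo1 and Tkt, the next enzymes of the pathway, differed by -2.13, -1.81 and -1.08. Me2, a mitochondrial malic enzyme, rose by 0.46 ± 0.10 (processed transcript, adjusted p = 7.5e-03).

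Of 27 rows for iron and heme handling 5 fell and 2 rose, and the summed level was 2.42-fold lower while the median difference was only -0.14. Blvrb, biliverdin reductase B, differed by -2.91 ± 0.07 (retained intron, adjusted p = 4.8e-13), and Fth1, the ferritin heavy chain, by -1.58 ± 0.11 (protein-coding transcript, adjusted p = 1.7e-07). Cp, ceruloplasmin, a copper ferroxidase, rose from 2.57 ± 0.80 (SD, n = 4) to 6.22 ± 0.74 (SD, n = 4), or by 3.65 (retained intron, limma adjusted p = 1.8e-04). Lcn2, a siderophore-binding protein of neutrophils and epithelium, was higher by 1.42 (processed transcript, adjusted p = 0.025), a call lost without KEAP1-KO tumor 1, 3 or 4 or DKO tumor 1 or 4 (adjusted p up to 0.070).

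Among drug-handling genes 7 of 19 rows for aldehyde and aldo-keto metabolism fell and none rose. Of 24 rows for cytochromes P450, UDP-glucuronosyltransferases, sulfotransferases and carboxylesterases 6 fell against 1 that rose. Ugt1a6a, which glucuronidates phenols, differed by -2.56 ± 0.18 (retained intron, adjusted p = 1.7e-07). Cyp1a1, an aryl hydrocarbon receptor target, fell by 1.87 (whole gene) to 2.08 ± 0.17 (SD, n = 4), close to the floor. Akr1b8, an aldo-keto reductase, fell by 1.17 ± 0.11 (processed transcript, adjusted p = 4.8e-06). Of 26 rows for ABC transporters 4 fell and 1 rose. Abcc4, an exporter of conjugates and prostaglandins, differed by -2.23 ± 0.20 (processed transcript, adjusted p = 2.4e-06). Abcb1a, which encodes a P-glycoprotein, stood at 5.52, 5.30, 6.21 and 5.44 in KEAP1-KO tumors but at 2.0, 5.04, 2.0 and 2.0 in DKO tumors (retained intron). The groups did not overlap, and DKO tumor 2 lay next to the KEAP1-KO tumors (-2.86 ± 0.52, adjusted p = 2.0e-03). Of 23 rows for amino acid transporters 3 fell and 1 rose, and for both transporter lists the background was 7.12% lower and 6.72% higher. Slc1a4, an exchanger of neutral amino acids such as serine, was lower by 1.93 ± 0.15 (whole gene, adjusted p = 5.2e-07).

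Genes of prostaglandin and leukotriene metabolism moved in both directions. Of 19 rows for arachidonic acid metabolism 6 were lower and 3 higher, and the summed level was 1.77-fold lower with a median difference of -0.035. Ptgs2, the inducible cyclooxygenase COX-2, stood at 11.40, 11.84, 11.80 and 12.02 in KEAP1-KO tumors and at 8.70, 8.99, 8.72 and 9.62 in DKO tumors (protein-coding transcript). The highest DKO tumor lay below the lowest KEAP1-KO tumor, and the difference was -2.76 ± 0.35 (adjusted p = 9.0e-05). Pla2g4a, the phospholipase that releases arachidonic acid, fell by 2.05 (protein-coding transcript), and the prostacyclin receptor gene Ptgir by 1.80 (whole gene). Ptgr1, which inactivates prostaglandins and leukotriene B4, fell by 2.12 (whole gene). Ptgs1, the constitutive cyclooxygenase, rose by 1.28 ± 0.22 (processed transcript, adjusted p = 1.3e-03), and Alox5ap, needed for leukotriene synthesis, by 1.04 ± 0.20 (protein-coding transcript, adjusted p = 2.5e-03). The retained-intron row of Ptger2, a prostaglandin E2 receptor, had no reads in any KEAP1-KO tumor and stood at 2.35, 3.84, 3.27 and 3.05 in DKO tumors. Its call (adjusted p = 0.033) was lost in 5 of the 6 fits that still held its row, those without any 1 of the KEAP1-KO tumors or DKO tumor 4 (adjusted p up to 0.070).

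Secreted factors moved in both directions, 7 of 46 rows for cytokines and growth factors rising and 6 falling, against a background of 6.72% and 7.12%. The Il7 row, a processed transcript of a lymphocyte survival cytokine, stood at 6.58, 6.89, 7.05 and 6.87 in KEAP1-KO tumors and at 3.79, 3.73, 3.78 and 2.89 in DKO tumors. The groups differed by -3.30 ± 0.25 (adjusted p = 5.8e-07). Il7, Slpi, which encodes a secreted inhibitor of neutrophil elastase (whole gene, -3.77 ± 0.35, adjusted p = 4.5e-06), and Serpinb9e, a serpin gene (whole gene, -3.87 ± 0.41, adjusted p = 1.3e-05), were picked out by the study from these lines, so that their fall is not independent evidence. Bmp6, a bone morphogenetic protein, fell by 1.52 (processed transcript) and Gdf15, a stress-induced member of the TGF-β family, by 0.96 (whole gene). The retained-intron row of Vegfa, an endothelial growth factor, stood at 6.06, 5.69, 5.95 and 6.21 in KEAP1-KO tumors and at 2.0, 4.20, 4.82 and 5.43 in DKO tumors. DKO tumor 1 had no reads of it, and the call (-1.86 ± 0.52, adjusted p = 0.033) was lost without any 1 of the KEAP1-KO tumors or DKO tumor 2 (adjusted p up to 0.082). Il1b, an inflammatory cytokine of myeloid cells, rose by 1.78 ± 0.31 (retained intron, adjusted p = 1.4e-03).

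F3, tissue factor, the trigger of the clotting cascade, stood at 7.32, 7.15, 7.17 and 7.19 in KEAP1-KO tumors and at 3.40, 4.74, 4.69 and 4.34 in DKO tumors (retained intron). The 4 KEAP1-KO tumors lay close together and well above the DKO tumors (-2.92 ± 0.30, adjusted p = 1.0e-05). Over 20 serpin rows 5 fell and 3 rose.

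Feedback genes of the ERK pathway also moved. Of 39 rows 8 were lower and 3 higher, against a background of 7.12% lower and 6.72% higher. The phosphatase genes Dusp4 and Dusp5, which switch off MAP kinases, fell by 1.98 ± 0.20 (adjusted p = 1.1e-05) and 1.43 ± 0.15 (adjusted p = 9.9e-06), both as whole genes. The RAF scaffold gene Ksr1 fell by 1.31 (protein-coding transcript), while its relative Ksr2 rose by 1.34 ± 0.22 (whole gene, adjusted p = 8.5e-04).

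Many ribosomal protein rows were lower in DKO tumors. Of 81 rows 45 fell and none rose, with a median of -0.47 and a summed level 1.40-fold lower. Rpl34 (retained intron) stood at 11.96, 11.86, 12.02 and 12.01 in KEAP1-KO tumors and at 11.28, 11.21, 11.20 and 11.14 in DKO tumors. The groups were tight and apart (-0.75 ± 0.09, adjusted p = 2.7e-05). The pseudogene Rpl14-ps1, which is not on the list, fell as well (whole gene, -2.52 ± 0.46, adjusted p = 2.1e-03). The call of Rps19 (-1.41, nonsense-mediated decay transcript, adjusted p = 0.020) was lost without KEAP1-KO tumor 1 or 4 or DKO tumor 1 (adjusted p up to 0.064), and Rpl17, an abundant row, did not pass (whole gene, -0.19 ± 0.09, adjusted p = 0.24). Between 40 and 48 of the list fell over the alternatives tried.

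Proteasome subunits fell more mildly, in 16 of 35 rows with a median of -0.28. Psmd11, a lid subunit, differed by -0.75 ± 0.07 (retained intron, adjusted p = 3.5e-06) and Psma5, a core subunit, by -0.65 ± 0.08 (whole gene, adjusted p = 4.0e-05). The count ranged from 8 to 19 over the alternatives. For glycolysis and hypoxia 8 of 44 rows were lower, 3 to 8 over the alternatives, and 4 were higher. Hk2, the inducible hexokinase, fell by 0.93 ± 0.18 (protein-coding transcript, adjusted p = 2.6e-03), whereas Pkm, pyruvate kinase, did not pass (retained intron, -0.57 ± 0.20, adjusted p = 0.095), though it did without DKO tumor 4 and with the replicate number as a block (adjusted p = 0.047 and 0.0499). Of 41 rows for chaperones and the unfolded protein response 11 fell and 5 rose. Those that rose included the endoplasmic reticulum genes Hspa5, the chaperone BiP (nonsense-mediated decay transcript, 0.42 ± 0.07, adjusted p = 8.5e-04), and Sdf2l1 (whole gene, 0.69 ± 0.08, adjusted p = 2.7e-05).

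Some of the largest falls lay in no list of NRF2 targets. Mfap3l, a membrane protein gene, stood at 10.65, 10.91, 11.15 and 11.09 in KEAP1-KO tumors and at 4.92, 5.53, 4.86 and 5.01 in DKO tumors (whole gene). With -5.87 ± 0.26 (adjusted p = 6.9e-10) it fell about as far as Adh7. Calr3, a calreticulin gene otherwise used in testis, stood at 8.0, 8.58, 8.09 and 8.16 in KEAP1-KO tumors and at 3.54, 3.49, 4.08 and 4.07 in DKO tumors (whole gene, -4.41 ± 0.24, adjusted p = 8.6e-09). Megf6, a protein with EGF-like repeats, stood at 7.09, 7.45, 7.06 and 6.86 against 2.0, 2.0, 2.0 and 3.19, which means no reads in 3 of the 4 DKO tumors (protein-coding transcript, -4.82 ± 0.50, adjusted p = 1.2e-05). The predicted genes Gm20658 and Gm12022 fell by 6.49 and 4.48 as whole genes, and Gm20658 had no reads in 3 of the 4 DKO tumors.

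Among whole genes outside the NRF2 and interferon lists, the next largest falls included genes of metabolism, signalling and transcription. Pcx, pyruvate carboxylase, which refills the citric acid cycle, stood at 9.15, 9.19, 9.03 and 8.97 in KEAP1-KO tumors and at 6.08, 5.74, 6.09 and 6.62 in DKO tumors. The groups differed by -2.95 ± 0.15 (adjusted p = 3.0e-09). Trim54, a ubiquitin ligase gene otherwise known from muscle, fell by 3.68 ± 0.18 (adjusted p = 2.8e-09), and Hsd17b2, whose enzyme inactivates sex steroids, by 2.28 ± 0.46 (adjusted p = 4.2e-03). Eid3, an inhibitor of p300-dependent transcription, fell by 2.30, Csta2, a cystatin, by 2.24, Gata3, a transcription factor of T cells and some epithelia, by 2.20, the serine protease gene Prss12 by 2.14, the kinase gene Hunk by 2.08 and the GABA-A receptor gene Gabrb1 by 2.0. Gabrb1 had no reads in any DKO tumor. Opn4, the melanopsin gene (processed transcript), stood at 4.32, 5.0, 4.72 and 4.85 against 2.0 in every DKO tumor (-2.72 ± 0.19, adjusted p = 2.0e-07).

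**Figure D1:**
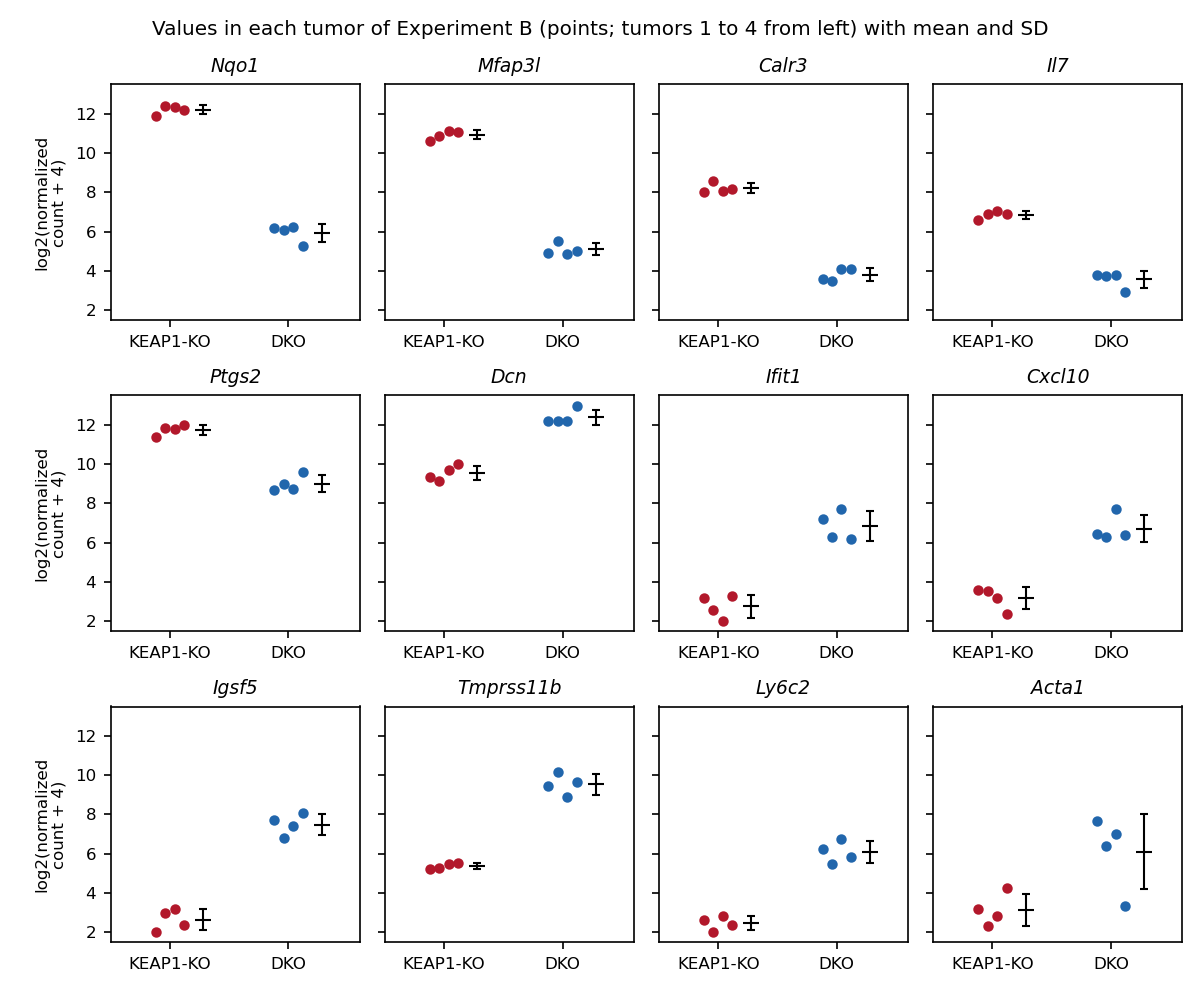
Log2(normalized count + 4) of 12 rows in Experiment B, with 4 KEAP1-KO tumors beside 4 DKO tumors and 1 point per tumor beside the group mean and SD. The groups do not overlap except for Acta1, where DKO tumor 4 lies among the KEAP1-KO tumors.

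Interferon genes rose. Of 75 rows of interferon-induced effectors 58 were higher and none lower (45 to 58 higher over the alternatives), with a median of 1.45 and a summed level 2.57-fold higher. Ifit1, a sensor of foreign RNA (whole gene), stood at 3.17, 2.55, 2.0 and 3.27 in KEAP1-KO tumors and at 7.18, 6.27, 7.73 and 6.16 in DKO tumors. The groups were well apart (4.09 ± 0.41, adjusted p = 9.3e-06). Its relatives Ifit3 and Ifit3b (whole genes) rose by 3.46 and 2.80, Slfn4, a schlafen of myeloid cells (whole gene), by 3.25, and the retained-intron rows of Usp18, which removes ISG15, and Cmpk2, a nucleotide kinase, by 3.01 and 2.70. Sp100, a nuclear body protein, was higher by 0.84 (retained intron, adjusted p = 0.044), a call kept only when DKO tumor 4 was the one left out (adjusted p up to 0.14). Lgals9, an abundant member, did not pass (retained intron, 0.28 ± 0.19, adjusted p = 0.46).

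The interferon-induced GTPases, which attack membranes around intracellular pathogens, rose in 12 of 17 rows, with a median of 1.99 and a summed level 3.60-fold higher. Gbp2 (nonsense-mediated decay transcript) stood at 5.08, 5.49, 5.69 and 5.59 in KEAP1-KO tumors and at 8.49, 8.36, 9.06 and 8.45 in DKO tumors, without overlap (3.13 ± 0.25, adjusted p = 1.0e-06). Gbp3 (whole gene, 2.63), Gbp5 (processed transcript, 2.45) and Gbp7 (whole gene, 1.40) rose as well. Gvin-ps4, a pseudogene of a very large interferon-inducible GTPase, had no reads in any KEAP1-KO tumor and stood at 5.40, 6.15, 5.80 and 5.01 in DKO tumors.

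Promoters of 3 interferon genes are shown because each holds the core of an interferon-stimulated response element, GAAA followed by any 2 bases and GAAA again, searched on both strands as above. Capitals mark the matches.
Ifit1, chr19:34640639-34640938, plus strand: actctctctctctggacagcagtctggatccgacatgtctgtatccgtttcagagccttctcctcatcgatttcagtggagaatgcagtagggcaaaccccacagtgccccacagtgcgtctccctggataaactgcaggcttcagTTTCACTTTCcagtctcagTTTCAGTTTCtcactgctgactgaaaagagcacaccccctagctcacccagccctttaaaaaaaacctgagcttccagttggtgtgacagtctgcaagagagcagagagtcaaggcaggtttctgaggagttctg
Cxcl10, chr5:92348840-92349139, minus strand: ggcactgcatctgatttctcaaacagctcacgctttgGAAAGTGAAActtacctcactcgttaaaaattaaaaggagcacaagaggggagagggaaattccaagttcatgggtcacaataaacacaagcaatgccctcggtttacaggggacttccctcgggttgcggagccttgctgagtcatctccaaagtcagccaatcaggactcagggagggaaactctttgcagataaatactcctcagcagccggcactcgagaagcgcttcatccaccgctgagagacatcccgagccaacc
Gbp2, chr3:142620413-142620712, plus strand: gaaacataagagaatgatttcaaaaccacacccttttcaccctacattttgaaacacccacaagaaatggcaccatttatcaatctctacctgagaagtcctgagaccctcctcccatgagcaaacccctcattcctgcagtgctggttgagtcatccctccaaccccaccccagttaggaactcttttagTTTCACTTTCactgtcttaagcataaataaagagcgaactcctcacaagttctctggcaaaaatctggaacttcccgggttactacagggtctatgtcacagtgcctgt
Ifit1 holds 2 matches, 104 and 85 bases before the start, Cxcl10 holds 1 at 213 and Gbp2 1 at 59. The Cxcl10 window also holds 1 match of the antioxidant core TGACNNNGC, left in lower case. The letters occur in 3.44% of all promoters. Counted by gene as above, they occur in 4.01% of genes with a row tested, 11.7% of those called higher and 3.31% of those called lower. Of 53 genes higher by at least 2 they were in 39.6%, and of 60 genes lower by at least 2 in 1.67%. All 9 GTPase genes with a promoter in the table and 32 of 58 effector genes held them.

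Chemokines and antigen presentation rose with the interferon genes. Cxcl10, which draws CXCR3-bearing lymphocytes, stood at 3.58, 3.52, 3.18 and 2.36 in KEAP1-KO tumors and at 6.45, 6.29, 7.72 and 6.38 in DKO tumors (retained intron, 3.55 ± 0.41, adjusted p = 3.8e-05). Cxcl9, a ligand of the same receptor, rose by 2.35 (retained intron) and Ccl5 by 1.51 (whole gene). They were among 9 of 24 chemokine rows that rose, none having fallen, and Cxcl1, which draws neutrophils, did not pass (retained intron, -0.70 ± 0.23, adjusted p = 0.070), though it did in 4 of 18 alternatives (adjusted p down to 0.011). Of 21 rows for MHC class I and its peptide supply 13 rose and none fell (8 to 13 higher over the alternatives, median 1.0). H2-Q4 was higher by 1.76 (retained intron, adjusted p = 0.030), but the call was lost without KEAP1-KO tumor 1 or 4 or DKO tumor 2, 3 or 4 (adjusted p up to 0.085), and the abundant H2-D1 row did not pass (retained intron, 0.69 ± 0.25, adjusted p = 0.11; 0.021 with only the groups compared).

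For MHC class II 4 of 8 rows rose and the summed level was 2.51-fold higher. H2-Ab1, a class II chain (retained intron), stood at 5.39, 6.03, 5.63 and 5.92 in KEAP1-KO tumors and at 7.02, 7.38, 7.44 and 6.97 in DKO tumors (1.46 ± 0.18, adjusted p = 7.2e-05). The retained-intron rows of Ciita, the class II transactivator, and Cd74, the invariant chain, rose by 1.64 and 1.43. Of 21 complement rows 7 rose and none fell (6 to 12 higher over the alternatives). Cfb, factor B of the alternative pathway (whole gene), rose by 2.57 ± 0.47 (adjusted p = 2.3e-03), and Clu, clusterin, an inhibitor of the terminal complex (nonsense-mediated decay transcript), by 3.10 ± 0.34 (adjusted p = 2.1e-05). C1qb, a macrophage gene of the classical pathway, did not pass (whole gene, 0.38 ± 0.13, adjusted p = 0.075), but did in 5 of 18 alternatives, among them without DKO tumor 4 (adjusted p = 0.037).

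Markers of leukocytes rose at the same time. Of 20 general leukocyte rows 16 were higher and 1 lower, and the summed level was 1.62-fold higher without overlap between the groups. Ptprc, the common leukocyte antigen CD45 (retained intron), stood at 7.22, 7.69, 7.29 and 7.58 in KEAP1-KO tumors and at 8.62, 8.44, 8.64 and 8.15 in DKO tumors (1.02 ± 0.14, adjusted p = 1.8e-04). Coro1a, an actin regulator of leukocytes (retained intron), rose by 1.49 and Cytip, a cytohesin partner (processed transcript), by 2.11. Arhgdib, a signalling gene of blood cells, was the exception at -0.47 (protein-coding transcript, adjusted p = 0.017), a call lost without KEAP1-KO tumor 1 or 2 or DKO tumor 4 (adjusted p up to 0.060).

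Of 40 monocyte and macrophage rows 26 were higher and 1 lower, with a median of 0.85 and a summed level 1.72-fold higher. Ly6c2, of inflammatory monocytes (retained intron), stood at 2.58, 2.0, 2.82 and 2.36 in KEAP1-KO tumors and at 6.23, 5.47, 6.75 and 5.81 in DKO tumors (3.62 ± 0.31, adjusted p = 1.5e-06). Ccr2, the receptor that brings monocytes into tissue (whole gene), stood at 5.78, 6.13, 6.31 and 6.77 against 8.96, 8.96, 9.07 and 8.43 (2.61 ± 0.42, adjusted p = 6.7e-04). Nos2, the inducible nitric oxide synthase (whole gene), rose by 2.96 ± 0.47 (adjusted p = 6.3e-04), Chil3, a chitinase-like protein of activated myeloid cells (whole gene), by 3.15 and Plac8, found in monocytes and granulocytes (whole gene), by 2.78. Mrc1, the mannose receptor of resident and alternatively activated macrophages, did not pass (retained intron, 0.25 ± 0.12, adjusted p = 0.23; 0.030 with quantile normalization). Slc11a1, a metal transporter of phagosomes, was lower by 0.53 (retained intron, adjusted p = 0.021), and this call was lost without KEAP1-KO tumor 2 or DKO tumor 2 or 4 (adjusted p up to 0.072).

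Neutrophil rows had a median of 0.81. Of 15 rows 4 rose, Mmp8, the neutrophil collagenase, by most (whole gene, 1.69 ± 0.23, adjusted p = 1.9e-04), and Stfa1, a stefin, fell (whole gene, -1.38 ± 0.26, adjusted p = 2.5e-03). The summed neutrophil level overlapped, at 440 to 1431 normalized counts in KEAP1-KO tumors and 747 to 1046 in DKO tumors.

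Of 22 T cell rows 5 rose and none fell (2 to 5 over the alternatives), with a summed level 1.76-fold higher. Icos, a costimulatory receptor (whole gene), rose by 1.18 ± 0.26 (adjusted p = 7.2e-03). Ccr7, the lymph node homing receptor, was higher by 1.03 (whole gene, adjusted p = 0.046), a call lost without any 1 of the other tumors than KEAP1-KO tumor 3 (adjusted p up to 0.14). Of 12 NK cell rows 4 rose, and 0 to 6 did so over the alternatives. They included the cytotoxic genes Gzmb (1.74 ± 0.37, adjusted p = 5.9e-03) and Prf1 (1.46 ± 0.33, adjusted p = 8.9e-03) and the receptor gene Klrk1 (1.68 ± 0.30, adjusted p = 1.8e-03), all as whole genes. Cytotoxic T cells use the same genes, and the summed NK cell levels overlapped. None of 5 B cell rows and none of 7 mast cell and eosinophil rows was called in either direction. Of 12 dendritic cell rows 2 rose and 1 fell, the last being Flt3 (processed transcript, -1.53 ± 0.33, adjusted p = 6.4e-03).

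**Figure D2:**
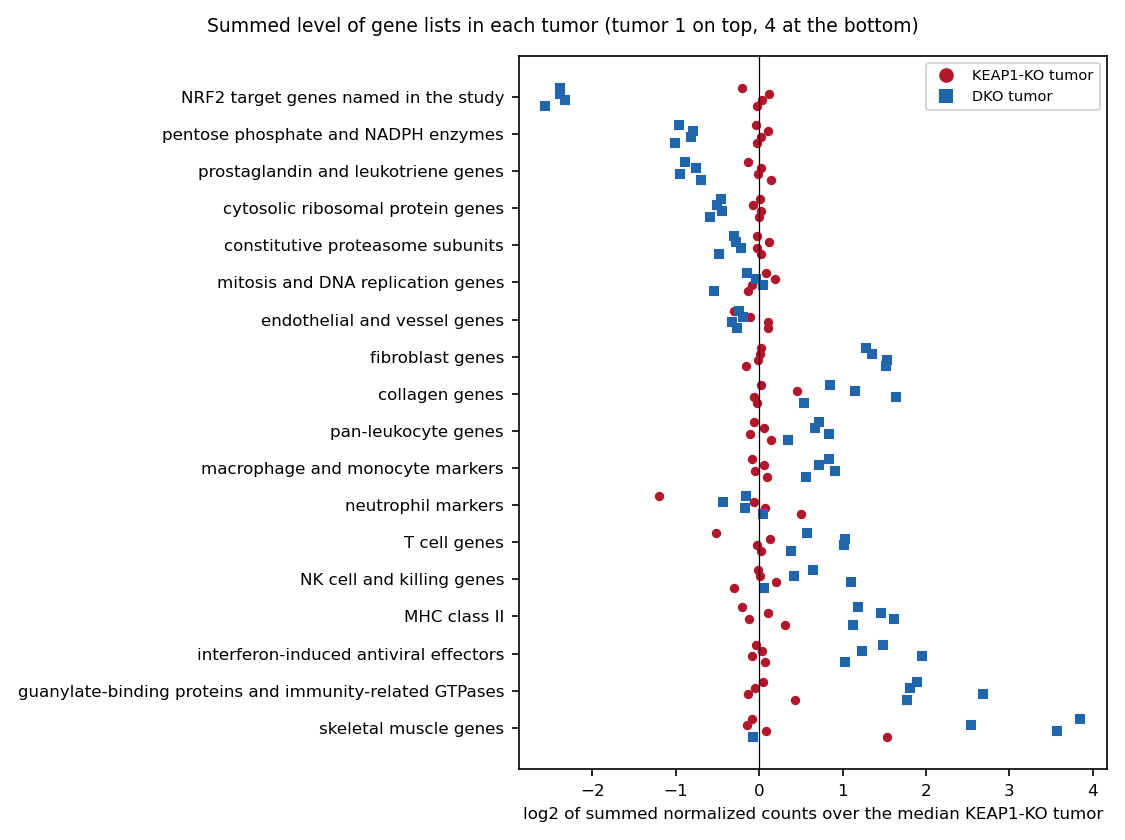
Summed normalized counts of marker lists in each of the 8 tumors, as log2 of the ratio to the KEAP1-KO median, 1 point per tumor. Leukocyte, macrophage and fibroblast lists separate the groups, while the neutrophil list overlaps and skeletal muscle sets DKO tumor 4 apart from the other DKO tumors.

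Matrix genes rose unevenly. Of 20 fibroblast rows 5 were higher and none lower under any of the alternatives, and the summed level was 2.71-fold higher with a median difference of 0.38. Dcn, decorin, a collagen-binding proteoglycan (retained intron), stood at 9.33, 9.16, 9.73 and 9.99 in KEAP1-KO tumors and at 12.22, 12.23, 12.20 and 12.97 in DKO tumors (2.85 ± 0.21, adjusted p = 2.7e-07). Col3a1, fibrillar collagen (retained intron), rose from 9.98, 10.21, 9.63 and 9.61 to 12.15, 11.77, 12.54 and 11.93 (2.24 ± 0.45, adjusted p = 4.2e-03), and Lum, lumican (whole gene), by 2.23 ± 0.46 (adjusted p = 4.9e-03). Col1a1, the chain of type I collagen (whole gene), stood at 8.64, 9.91, 8.78 and 8.83 against 8.93, 10.59, 11.09 and 7.14 and did not pass (adjusted p = 0.88), the DKO tumors lying on both sides of the others. Over all 23 collagen rows 4 rose and 3 fell, against a background of 6.72% higher and 7.12% lower. Those that fell included Col5a3 (retained intron, -1.66 ± 0.32, adjusted p = 3.1e-03) and Col18a1 (protein-coding transcript, -1.31 ± 0.16, adjusted p = 5.7e-05). Of 40 other matrix rows 8 rose and 2 fell, among the former Thbs1, thrombospondin 1 (2.37 ± 0.31, adjusted p = 1.1e-04), and Vcan, versican (1.58 ± 0.29, adjusted p = 2.2e-03), both as retained-intron rows.

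Of 27 endothelial rows 4 fell (2 to 6 over the alternatives) and 1 rose, with a median of -0.27, against a background of 7.12% lower and 6.72% higher. Cldn5, a tight junction protein of endothelium, was lower by 1.05 (whole gene, adjusted p = 0.016), a call lost without KEAP1-KO tumor 3 or 4 or DKO tumor 1 or 3 (adjusted p up to 0.059). Pecam1, the panendothelial marker CD31, did not pass (retained intron, -0.25 ± 0.14, adjusted p = 0.33), and Pdpn, of lymphatic endothelium and of fibroblasts, rose (whole gene, 1.15 ± 0.21, adjusted p = 1.8e-03). Of 12 pericyte and smooth muscle rows 1 rose.

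Skeletal muscle genes set 3 of the 4 DKO tumors apart. The summed level of the 9 rows tested was 110, 105, 124 and 338 normalized counts in KEAP1-KO tumors and 1682, 681, 1391 and 111 in DKO tumors, so that only DKO tumor 4 lay among the KEAP1-KO tumors. Acta1, skeletal actin (whole gene), stood at 7.66, 6.36, 7.02 and 3.32 in DKO tumors and at 2.30 to 4.22 in the others (2.96 ± 0.72, adjusted p = 0.016). With Xirp2 (2.85) and Myh1 (2.70), both whole genes, it made 3 calls, and over the alternatives 0 to 6 rows of this list were called. Ttn, titin, and Myh8, a perinatal myosin, did not pass (adjusted p = 0.10 and 0.88), although Ttn passed without DKO tumor 4 (adjusted p = 0.0044). The call of Acta1 was lost without KEAP1-KO tumor 2 or DKO tumor 1 or 3 (adjusted p up to 0.059), that of Myh1 in 3 of the 4 fits that still held its row, those without KEAP1-KO tumor 1, 2 or 3 (up to 0.096), and that of Xirp2 without KEAP1-KO tumor 1, 2 or 3 or DKO tumor 1, 2 or 3 (up to 0.13). Of 8 adipocyte rows 3 rose (0 to 4 over the alternatives), with Car3, a carbonic anhydrase of fat and muscle, higher by 1.63 (whole gene, adjusted p = 0.015). The part of adjoining muscle and fat in the other results was not tested.

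Several of the largest rises belonged to neither the interferon nor the leukocyte lists. Igsf5, a junctional adhesion protein of epithelium (whole gene), stood at 2.0, 2.95, 3.18 and 2.36 in KEAP1-KO tumors and at 7.69, 6.77, 7.39 and 8.06 in DKO tumors (4.86 ± 0.41, adjusted p = 1.6e-06), which was the largest rise of any row with a symbol. Tmprss11b, a membrane serine protease of squamous epithelium (whole gene), stood at 5.21, 5.26, 5.45 and 5.52 against 9.46, 10.19, 8.87 and 9.66 (4.19 ± 0.29, adjusted p = 1.9e-07). Zdhhc14, a palmitoyltransferase (whole gene), stood at 3.58, 3.83, 3.47 and 3.82 against 7.53, 7.51, 7.65 and 7.64, with little spread in either group (3.91 ± 0.17, adjusted p = 4.8e-10). The groups of all 3 genes were far apart. Tmem119, a membrane protein of microglia and bone cells (whole gene), rose by 3.18, Zbtb7c, a zinc finger repressor (nonsense-mediated decay transcript), by 3.16, and Fam167a (whole gene) by 2.70. Smaller rises were those of Snai2, the repressor Slug (whole gene), by 1.54 ± 0.18 (adjusted p = 4.2e-05) and of Rgs16, which damps G protein signalling (whole gene), by 0.96.

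Epithelial genes as a list did not move one way, with 4 of 26 rows higher and 3 lower. Ocln, occludin of tight junctions (protein-coding transcript), fell by 1.67 ± 0.13 (adjusted p = 6.1e-07) and Krt18, a simple keratin (whole gene), by 1.09 ± 0.19 (adjusted p = 1.7e-03). Cdh1, which encodes E-cadherin (whole gene), rose by 1.40 ± 0.35 (adjusted p = 0.017). None of 6 keratinocyte rows was called, and of 15 mesenchymal rows 2 rose and 1 fell. Of 38 rows for YAP, TGF-β, WNT and related signalling 5 rose and 5 fell. Immune checkpoint genes gave 2 rises and 2 falls in 18 rows. The background for these lists was 6.72% higher and 7.12% lower. Cd80, a costimulatory ligand, rose by 1.25 ± 0.21 (whole gene, adjusted p = 8.6e-04) and Cd276, the tumor antigen B7-H3, fell by 0.76 ± 0.11 (whole gene, adjusted p = 3.5e-04). Cd274, PD-L1, was higher by 0.70 (whole gene, adjusted p = 0.042) with overlap between the groups, and the call was kept only when DKO tumor 1 was the one left out (adjusted p up to 0.13).

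Few rows for cell division were called. Of 54 proliferation rows, with a median of -0.18, 1 was higher and 1 lower, below the background of 6.72% and 7.12%, and Cdc45, a subunit of the replicative helicase, was the one that rose (retained intron, 0.64 ± 0.13, adjusted p = 4.9e-03). Of 22 histone rows 1 rose, and of 15 rows encoded by mitochondrial DNA only mt-Nd3, a subunit of complex I, was called (whole gene, -0.45 ± 0.10, adjusted p = 6.4e-03), a call lost with quantile normalization (adjusted p = 0.052).

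**Figure D3:**
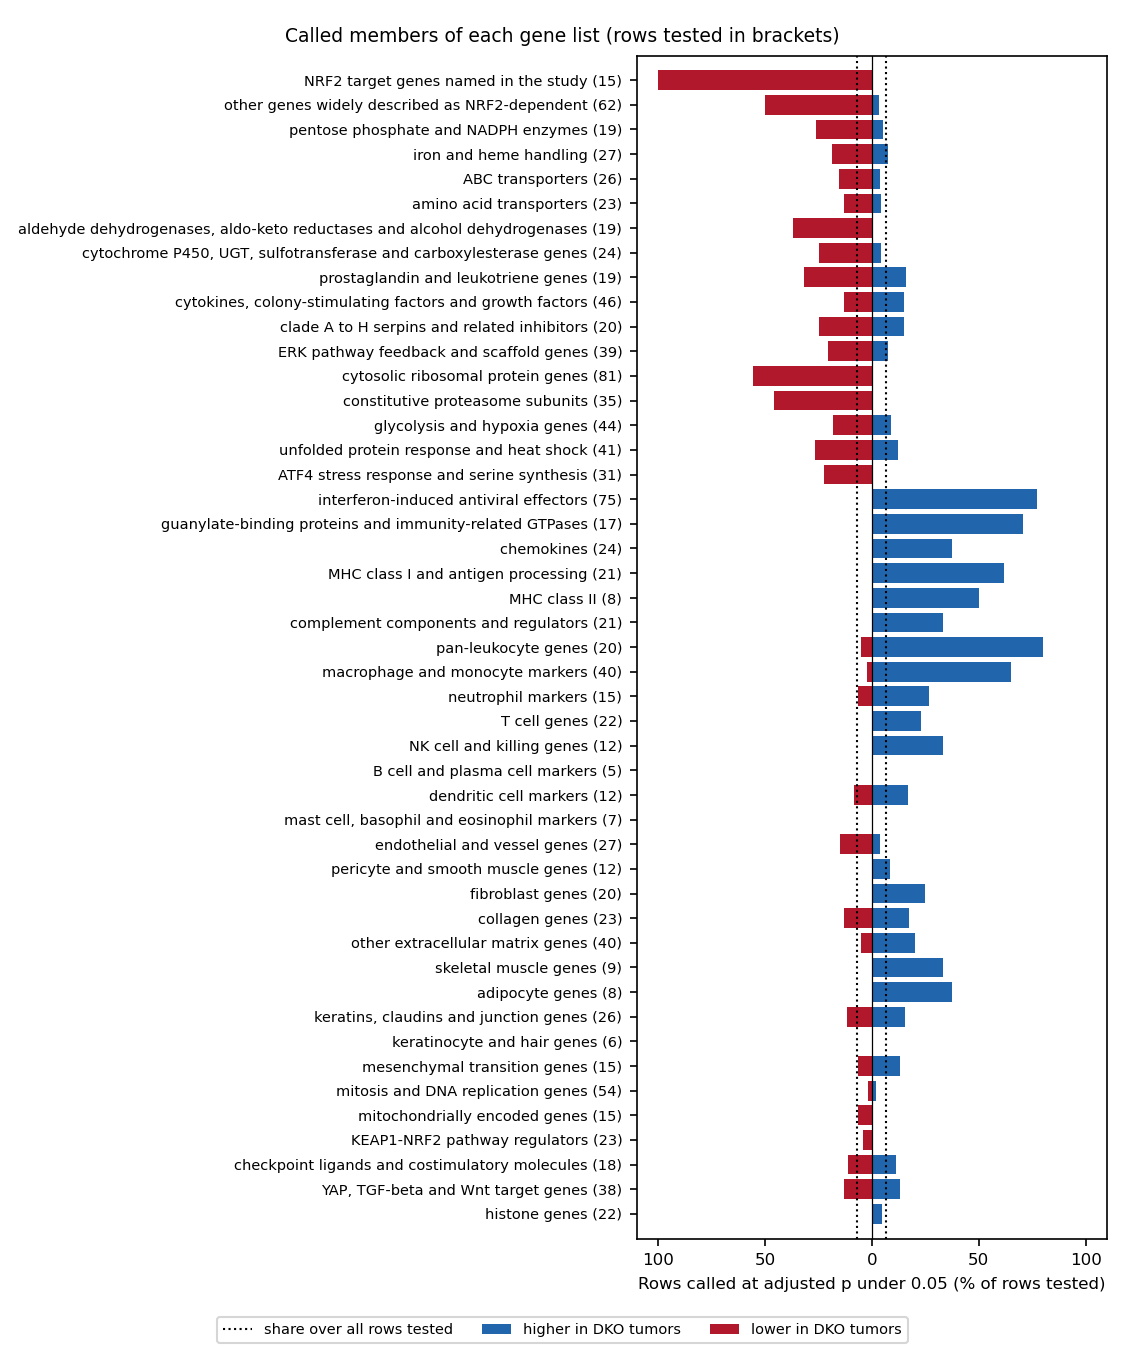
Share of tested rows of each gene list that was higher or lower in DKO than in KEAP1-KO tumors (limma, adjusted p under 0.05), with lines at the share of all rows with a symbol, 6.72% higher and 7.12% lower. Interferon, leukocyte and macrophage lists lie on the higher side and NRF2 target and ribosomal lists on the lower side.

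The cultured lines show the same genotypes without a host, under other growth conditions. In culture 1736 of 16565 rows (10.5%) differed between DKO and KEAP1-KO cells, 741 higher (4.47%) and 995 lower (6.01%) in DKO cells. Of the 1104 rows lower in DKO tumors 455 (41.2%) were also lower in DKO cells, 45.7% of the 995 that fell there, and of the 1042 rows higher in tumors 244 (23.4%) were higher in cells, 32.9% of the 741 that rose there. The NRF2 effect in tumors minus that in cells was tested as a difference of differences and passed for 1109 rows (6.69%), 645 of them above 0 (3.89%) and 464 below 0 (2.80%). This split moved with the scaling, to 550 above and 712 below with median centring and to 789 and 310 after rescaling without the 20 highest rows.

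The displayed NRF2 targets had medians of -2.52 in tumors and -2.49 in cells, although 7 of the 15 rows passed the test of the difference, 2 of them above 0 and 5 below. The differences of the pentose genes G6pdx, Pgd and Taldo1 in cells were -1.84, -1.91 and -1.74. Interferon effectors had a median of 1.45 in tumors and -0.07 in cells, and 46 of 75 rows passed the test of the difference. Ifit1 was near the floor in both cell lines (2.07 and 2.0) and differed between tumors and cells by 4.16 ± 0.49 (adjusted p = 5.4e-06). Gbp7 and Sp100 went opposite ways, higher in DKO tumors but lower in DKO cells by 2.75 and 2.94, which gave differences of 4.15 and 3.78. Gbp3 and Cmpk2 were lower in DKO cells by 1.30 and 1.38. Ly6c2 stood at 2.08 in both cell lines. The retained-intron rows of Cfap45, of cilia, and Cdh23, a cadherin of hair cells, fell in tumors, by 2.46 and 3.08, and their means in both cell lines were 2.0 to 2.14.

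Ribosomal protein rows had a median of -0.47 in tumors and -0.05 in cells, and 41 of 81 passed the test of the difference. Calls among ATF4 targets and serine synthesis genes were mostly higher in DKO cells and lower in DKO tumors. In cells 21 of the 31 rows were higher and 2 lower, with a median of 0.72, while in tumors 7 were lower (4 to 7 over the alternatives) and none higher, with a median of -0.26, and 22 rows differed between tumors and cells. Lists can share genes, and the rows lower in tumors include Slc7a11, also a displayed NRF2 target. Aars, alanyl-tRNA synthetase (protein-coding transcript), rose in DKO cells by 0.85 ± 0.06 (adjusted p = 1.3e-10) but differed by 0.00 ± 0.07 in tumors (adjusted p = 0.99). Slc7a5, a leucine transporter (retained intron), rose in cells by 1.12 and differed in tumors by 0.16 (adjusted p = 0.56). Gdf15 rose in cells by 0.81 and fell in tumors by 0.96. Atf4 itself (retained intron) was higher in DKO cells by 0.43 and lower in DKO tumors by 0.45 (adjusted p = 0.025), and the tumor call was lost without KEAP1-KO tumor 2, 3 or 4 or DKO tumor 1 or 3 (adjusted p up to 0.084).

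Single genes parted too. Mfap3l fell by 5.87 in tumors and 2.95 in cells (difference -2.92 ± 0.30, adjusted p = 8.4e-07), and Megf6 by 4.82 in tumors against a value of -1.11 in cells that did not pass (difference -3.71 ± 0.82, adjusted p = 7.4e-03). The Abcb1a row was low in both cell lines, at 2.35 and 2.37. Igsf5 and Tmprss11b rose in cells as well, by 1.67 and 2.11, and their rises in tumors were larger by 3.19 and 2.08. Zdhhc14, Rgs16 and Snai2 rose more in cells, by 5.22, 3.21 and 3.02. Trim54 fell more in cells, by 4.81. Dcn rose by 1.67 in cells, from a level of 2.71 that is far below that of the tumors.

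**Figure D4:**
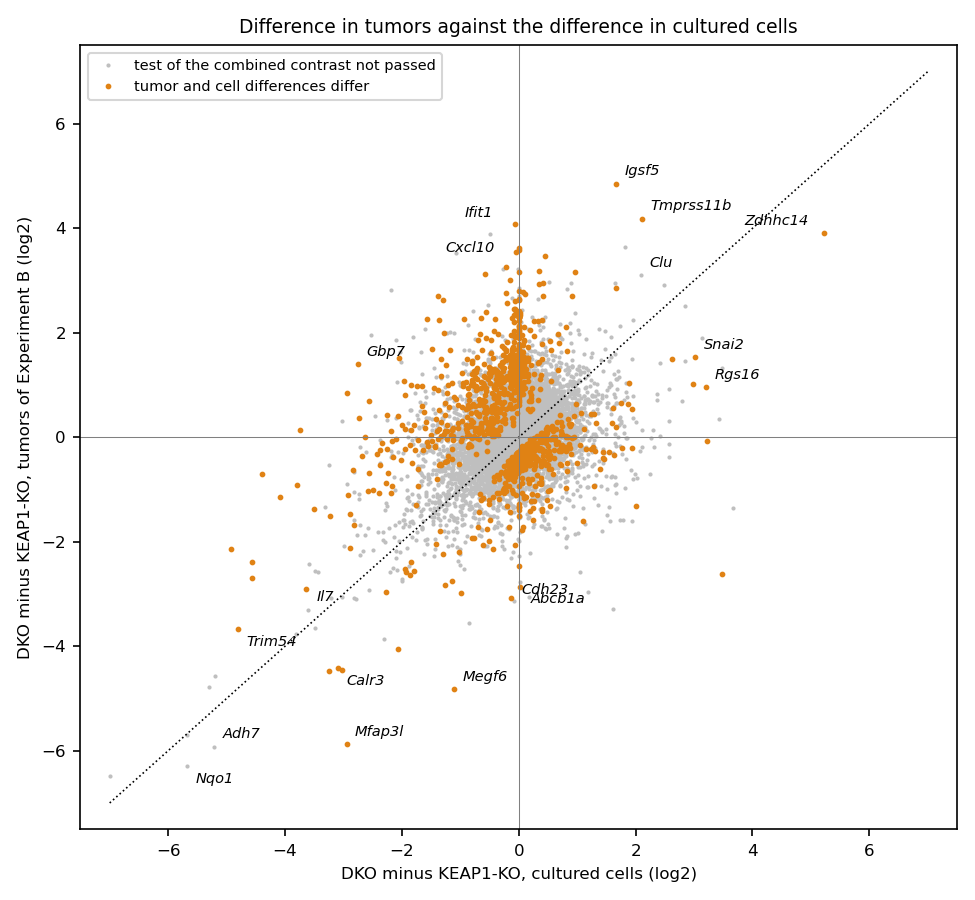
Log2 difference of DKO minus KEAP1-KO in tumors of Experiment B (vertical axis) against that in cultured cells (horizontal axis), 1 point per row with a symbol tested, with orange where the difference between the 2 passed the limma test and a dotted line where they are equal. Nqo1 and Adh7 lie near the line, Ifit1 and Cxcl10 lie high on the tumor axis and near 0 on the cell axis, and Zdhhc14 lies to the right of the line.

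Experiment A, in which KEAP1-KO tumors were compared with WT tumors, used other tumors. Set beside Experiment B, it addresses whether NRF2 deletion undoes what KEAP1 deletion did. Of the 1104 rows lower in DKO tumors 424 (38.4%) were higher in KEAP1-KO than in WT tumors, 35.4% of the 1198 that rose there, against 7.73% of all tested rows. Of the 1042 rows higher in DKO tumors 627 (60.2%) had been lower in KEAP1-KO tumors, 31.5% of the 1992 that fell there, against 12.8% of all tested rows. The sum of both effects compares DKO with WT tumors through the KEAP1-KO tumors of each experiment, and it differed from 0 in 1329 rows (8.57%), 455 above (2.93%) and 874 below (5.64%). The count ranged from 988 to 1569 when single tumors were left out, the latter without KEAP1-KO tumor 3 of Experiment A, and was 792 without a trend in the variances.

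For Nqo1 the sum was -0.75 (adjusted p = 0.11), for Calr3 0.04 (adjusted p = 0.97), for Ifit1 -0.05 (adjusted p = 0.98) and for Cxcl10 0.03 (adjusted p = 0.99), none of which passed. Other genes did not return to the WT level. Ptprc stayed below it by 1.30 (adjusted p = 1.1e-03) and H2-Ab1 by 1.70 (adjusted p = 1.0e-03). G6pdx went below the WT level by 1.10 (adjusted p = 1.1e-04), Mfap3l by 3.81 (adjusted p = 2.8e-05), F3 by 3.53 (adjusted p = 1.5e-04) and Opn4 by 3.94 (adjusted p = 2.3e-06). Igsf5, Tmprss11b and Fam167a rose beyond it, by 5.46, 5.28 and 4.78 (adjusted p = 6.4e-05, 6.0e-06 and 1.8e-05). Ksr2 (-3.18, adjusted p = 3.4e-05), the glutaminase gene Gls2 (nonsense-mediated decay transcript, -3.86, adjusted p = 0.01) and the kinase gene Pnck (protein-coding transcript, -3.48, adjusted p = 1.3e-04) had negative sums as well, although Gls2 and Pnck did not pass in Experiment B itself (adjusted p = 0.15 and 0.10), Pnck passing without KEAP1-KO tumor 4 (adjusted p = 0.048). F3 and Igsf5 had not changed detectably with KEAP1 deletion (-0.62, adjusted p = 0.22, and 0.60, adjusted p = 0.41). Thap6, a zinc finger protein gene (retained intron), had a sum of 5.14 (adjusted p = 0.015), but its KEAP1-KO tumors of Experiment B spread over 4.80, 2.0, 2.0 and 4.79. Its call in Experiment B (2.81, adjusted p = 0.040) was lost when KEAP1-KO tumor 2 or 3 or any 1 of the DKO tumors was left out (adjusted p up to 0.12). The experiments were separate cohorts, so the sum also carries any difference between them.

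**Figure D5:**
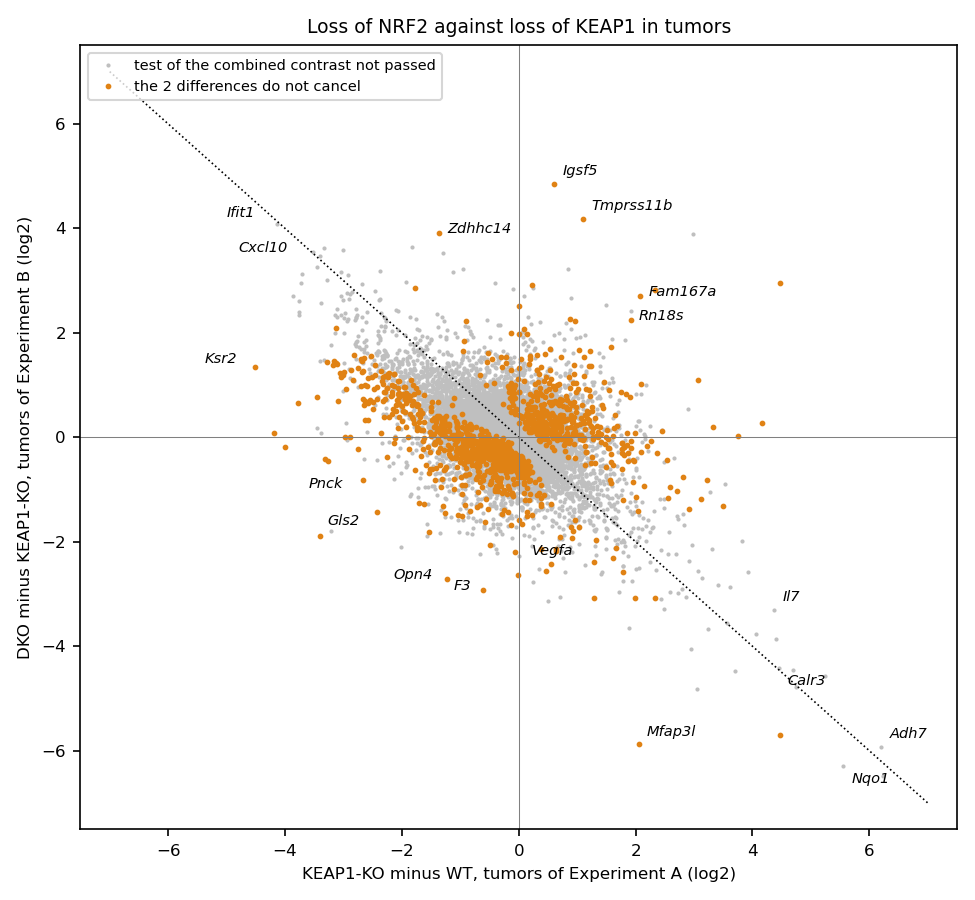
Log2 difference of DKO minus KEAP1-KO tumors in Experiment B (vertical axis) against KEAP1-KO minus WT tumors in Experiment A (horizontal axis), 1 point per row with a symbol tested, with orange where the sum of both passed the limma test and a dotted line where the sum is 0. Nqo1, Calr3, Ifit1 and Cxcl10 lie near the line, and Mfap3l, F3, Opn4, Igsf5 and Tmprss11b lie away from it.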

How the data were processed

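Whole-transcriptome RNA-seq values of 28 libraries were deposited by the authors as 1 table of log2(normalized count + 4). Per the study's methods, rRNA-depleted strand-specific libraries were sequenced with 150-base reads and quantified with Salmon against GENCODE version 35. The methods name TPM, whereas all deposited values checked in each library were whole reads (within 0.05 read) divided by 1 factor, and how that factor was set is not given in the sources used here. The extract protocol of the labels names mouse livers, whereas titles and methods name tumors and 3LL cells. Since the deposited scale is log2, limma was used and no count model was run. Row kinds were read from the table's identifiers, which match GENCODE vM21 (GRCm38) except in 108 rows with a symbol, Rn18s among them, and promoters came from RefSeq (GRCm38.p6). No table column was left unused (0 columns).

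Rows that reached 5 normalized counts in 4 or more libraries were fitted with limma 3.58.1 (trend on, R 4.3.3), all tumors in 1 fit and tumors with cells in another, and p-values were Benjamini-Hochberg adjusted over all rows tested (34215 in tumors) at a threshold of 0.05. Tables and figures used Python 3.11.15, pandas 2.3.3 and matplotlib 3.10.9. The fits were tested on simulated data. Summed levels are sums of normalized counts over a list, compared by group medians.

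The tumors, the 58 gene lists and the tests were chosen with earlier results of these data known. Named genes were the 12 highest and 12 lowest called rows without overlap, overall and among whole genes outside the NRF2 and interferon lists, the 6 highest and lowest against cells, the 5 highest and lowest sums, genes the study names, and up to 4 called members, 2 that did not pass and those called against the majority of each list described. A few genes this rule names are not reported here. Alternatives covered pseudocount, filter, scaling, trend, samples in the fit, replicate block and single libraries.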

Additional observations from a re-analysis of the deposited data

Results flagged for a closer look

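Of 408 groups of 4 tumors examined (a gene or a list in 1 arm), 43 held a tumor far from the other 3 by Dixon's test at the 95% level, which chance gives in about 1 of 20 groups. That rate does not hold for 11 of them, in which the other 3 tumors had no reads and any read sets the lone tumor apart. The values are log2 levels of the lone tumor. The lone high values of KEAP1-KO tumors were those of tumor 1 for Prf1 (2.32), of tumor 2 for Col1a1 (9.91), Gclm (7.74) and Gzmb (4.01), of tumor 3 for Cat (12.03) and of tumor 4 for Car3 (2.89), Ifit3 (4.22), Klrk1 (2.65), Myh1 (3.82), Ttn (7.77) and Xirp2 (4.85). The lone low values of KEAP1-KO tumors were those of tumor 1 for Cfb (2.0), Eid3 (7.78), Fam167a (4.25), Icos (2.0), Il1b (4.46), Rn18s (8.60) and Zbtb7c (2.0), of tumor 2 for Gbp3 (3.73) and Ifit3b (2.0) and of tumor 3 for Keap1 (7.30) and Ocln (7.71). The lone high values of DKO tumors were those of tumor 1 for Cdh23 (3.67) and Rpl14-ps1 (3.07), of tumor 2 for Abcb1a (5.04), Cfap45 (2.60) and Cyp1a1 (2.33), of tumor 3 for Cdc45 (8.55), Csta2 (4.90), Cxcl10 (7.72) and Ksr1 (6.44) and of tumor 4 for Dcn (12.97), Gm20658 (2.51), Megf6 (3.19) and Ptgs1 (8.77). The lone low values of DKO tumors were those of tumor 1 for Slc7a5 (10.72), of tumor 3 for Fam167a (6.87) and of tumor 4 for Il7 (2.89). Of the summed list levels, in normalized counts, the lone high values were those of interferon-induced GTPases in DKO tumor 3 (2617), B cell genes in DKO tumor 3 (235), pericyte and smooth muscle genes in KEAP1-KO tumor 1 (1272), collagens in KEAP1-KO tumor 2 (6656) and skeletal muscle genes in KEAP1-KO tumor 4 (338).

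For 77 named genes the DKO minus KEAP1-KO difference in tumors differed from that in cultured cells by limma's test of the difference of differences (adjusted p under 0.05). Values are the tumor difference minus the cell difference, each over 4 libraries per group. It was above 0 for Ifit1 (4.16), Gbp7 (4.15), Cmpk2 (4.07), Gbp3 (3.93), Sp100 (3.78), Gbp2 (3.71), Ly6c2 (3.62), Cxcl10 (3.59), Gvin-ps4 (3.59), Slfn4 (3.47), Igsf5 (3.19), Usp18 (3.16), Chil3 (3.15), Ifit3 (3.0), Tmem119 (2.83), Ifit3b (2.80), Cfb (2.77), Plac8 (2.71), Ccr2 (2.67), Nos2 (2.55), Gbp5 (2.52), Cxcl9 (2.35), Zbtb7c (2.20), Tmprss11b (2.08), Cytip (2.03), Slc11a1 (1.85), Col3a1 (1.84), Fam167a (1.79), Il1b (1.78), Gzmb (1.74), Ccl5 (1.72), Cd80 (1.71), Mmp8 (1.69), Klrk1 (1.68), Car3 (1.63), Ciita (1.57), Prf1 (1.53), Cd74 (1.5), H2-Ab1 (1.46), Coro1a (1.40), Gsdme (1.39), Ptprc (1.37), Icos (1.26), Alox5ap (1.18), Dcn (1.18), Trim54 (1.13), Arhgdib (0.79), Ptgr1 (0.77), Blvrb (0.74) and Sdf2l1 (0.48). It was below 0 for Megf6 (-3.71), Cdh23 (-2.94), Mfap3l (-2.92), Abcb1a (-2.88), Cfap45 (-2.46), Rgs16 (-2.25), Slc7a11 (-1.99), Gdf15 (-1.77), Prss12 (-1.70), Rps19 (-1.60), Snai2 (-1.48), Gstm2 (-1.44), Calr3 (-1.32), Zdhhc14 (-1.31), Akr1b8 (-1.26), Gm12022 (-1.23), Slc1a4 (-1.17), Slc7a5 (-0.97), Abcc4 (-0.93), Atf4 (-0.88), Aars (-0.85), Pcx (-0.68), Pla2g4a (-0.63), Rpl34 (-0.62), G6pdx (-0.55), Rpl17 (-0.51) and Psmd11 (-0.34). For Abcb1a the call was lost when only the groups compared were fitted (adjusted p = 0.067).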

How the results depend on the processing

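Fewer or more rows passed under other settings, but the count in tumors stayed within 1.5 times of 2146 except where a difference of at least 1 was required (824). It was 1739 to 1854 when single tumors were left out, 1740 without a trend and 2550 when p-values were adjusted over rows with a symbol alone. The count for tumors minus cells (1109) was 614 with that size limit and 922 to 1058 with single libraries left out. That for the sum of the NRF2 and KEAP1 effects (1329) was 595 with the limit, 792 without a trend and 988 to 1569 with single tumors left out, and limiting it to the groups compared gave the same fit. Quantile normalization gave 1175 higher and 966 lower rows in tumors, 622 above and 330 below 0 for tumors minus cells, and 606 and 734 for the sum. The split for tumors minus cells was 631 and 256 without a trend and 495 and 557 with the filter on the mean, and rescaling gave 579 and 688 for the sum, while median centring gave 491 and 691. The causes were not tested.

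Cdh1, Col5a3, Col18a1 and Plat were not followed through the alternatives. Of 157 other named genes 139 were called, 121 of them under every alternative that could be fitted, and 0 changed sign. Of the 18 not called 7 gained a call in at least 1 alternative. Rows near 0 crossed it without a call: Aars to -7.5e-05 with median centring and between -0.039 and 0.041 with single tumors left out (below 0 without KEAP1-KO tumor 2 or 3 or DKO tumor 2), Nfe2l2 to 0.081 after rescaling and between -0.062 and 0.044 with single tumors left out (above 0 without KEAP1-KO tumor 1 or 2 or DKO tumor 2), Rpl17 to 0.0073 with quantile normalization and Col1a1 between -0.16, without DKO tumor 3, and 1.16, without DKO tumor 4.

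Tumors of the 2 arms share replicate numbers, but the labels tie no number to a mouse. Same-numbered tumors deviated together by correlations of 0.0034, 0.011, -0.028 and -0.0090 over 34215 rows, and not every tumor correlated best with its own number. With the number as a replicate block 1801 rows passed (871 higher, 930 lower), against 970 for tumors minus cells and 988 for the sum.

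With 4 tumors a group and many rows near the floor, many differences were not detectable at this depth, and a row that did not pass was not shown to be equal. Genotype, clone and flank go together in Experiment B. Most leukocyte, fibroblast and vessel values rest on single transcripts, often retained introns. Other lists rest on them still more. Whole genes were 7 of 81 ribosomal, 3 of 35 proteasome and 3 of 15 displayed NRF2 target rows. They were 1 of 27 rows for iron and heme, 1 of 19 for pentose phosphate and NADPH and 1 of 8 for MHC class II.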

Other observations

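The remaining lists stand beside a background of 6.72% of tested rows higher and 7.12% lower. Of 25 cholesterol synthesis and uptake rows 3 fell and none rose, and of 32 fatty acid rows 3 fell and 1 rose. Of 26 p53 target rows 3 fell and 2 rose, and of 13 rows for insulin-like growth factors and their binding proteins 2 fell and 2 rose. None of 7 erythroid rows was called, while of 15 circadian clock rows 1 rose and 1 fell. Of 24 long noncoding RNA rows 4 fell and 2 rose, and of 5 peripheral nerve and glia rows 1 rose and 1 fell. The list of metalloproteinases and their inhibitors, which also holds other proteases, gave 4 rises and 2 falls in 29 rows. The serine protease gene Tmprss11b was among its rises and Plat among its falls. Its summed level was 1.67-fold higher in DKO tumors, with no overlap between the arms. Of 13 cathepsin and cystatin rows 3 rose and 2 fell, with a summed level 1.15-fold higher and no overlap between the arms.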
